A study of Mus musculus with 23 samples.

Results

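The genes described here are the mouse genes for voltage-gated sodium, calcium and potassium channels, for the other potassium channels, and for their directly associated subunits. Of 45706 genes counted in the hippocampus, 123 had a symbol beginning with Kcn, Hcn, Scn, Cacna1 or Cacna2 after Kcnq1, Kcnq1ot1, Kcnj13, Kcne2, Kcnj8 and Kcnj10, symbols ending in os and names of pseudogenes were left out. They comprised 121 protein-coding genes and 2 antisense transcripts, Kcnmb4os1 and Kcnmb4os2, whose symbols end in os followed by a number. The rule uses symbols only, and it was written with earlier results of these data known.

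The study asks, by its title, how the loss of insulin made in the brain affects learning and memory in female mice. RNA from dissected hippocampus was sequenced from 12 Ins2+/+ libraries (WT) and 11 Ins2-/- libraries (KO), all from females, and Ins2 is the gene whose product in the mouse is one of 2 insulins. The labels give no strain, no age and no treatment, and they do not say how the Ins2 allele was made or whether the second insulin gene, Ins1, was intact. Each library has a number that occurs in 1 genotype only, and libraries are named here by genotype and that number. No label says which libraries came from separate animals or litters, so a p-value measures the spread between these libraries.

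Voltage-gated sodium channels carry the rising phase of the action potential, and voltage-gated calcium channels couple depolarization to transmitter release, dendritic signalling and gene expression. Potassium channels oppose them: Kv channels repolarize the membrane and set firing patterns, calcium- and sodium-activated channels follow activity, and inward-rectifier and 2-pore-domain (K2P) channels hold the resting potential. HCN channels carry a mixed cation current that opens on hyperpolarization. In the hippocampus, granule cells of the dentate gyrus, pyramidal cells of CA1 and CA3, and interneurons each use a different mixture of these channels, and mutations in several of the genes cause epilepsy.

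The libraries held 13792274 to 22953261 estimated counts, and 0.560% to 0.956% of them fell in the channel genes. Ins2 had 26 counts in all, in 7 of 12 WT libraries and 18 of them in WT 17, and 0 counts in KO, so that at most 0.0156 CPM (counts scaled to a common library size) could be present over the 11 KO libraries as a group. The library labelled KO 8 stood apart from the rest. All 13 hypothalamic marker genes tested (Hcrt, Pmch, Avp and Oxt among them) were higher in it than in any other library, with a summed level of 1603 CPM against 1.64 to 9.20 CPM, while 8 of 9 dentate gyrus, 6 of 7 CA1 and 7 of 7 CA3 markers were lower than in any other library and the remaining dentate gyrus marker was higher. The CA2 markers summed to 224 CPM, within the 212 to 297 CPM of the others. No marker of these lists was at 0 in KO 8, and results that rest on this library are given with and without it. Choroid plexus markers summed to 20998 CPM in WT 17, 14410 in KO 12, 9615 in KO 6, 3472 in KO 2 and 3284 in WT 14, against 36.3 to 112 CPM in the remaining libraries.

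Levels are given as RPKM, counts per kilobase of merged exons and per common library size after scaling between libraries, so that genes of different length can be set side by side. In WT the channel genes summed to 1328 ± 98.9 RPKM (SD, n = 12). Of the 123 genes, 37 had a WT mean of at least 10 RPKM, 83 of at least 1 RPKM and 104 of at least 0.1 RPKM. The 10 highest genes made up 51.1% of the sum, and they include Kcnab2, Kcnip2, Scn2b and Scn3b, which encode subunits that attach to a channel and do not form its pore. Kcnk16 and Kcnj1 had no count in any library. The 22 genes that did not pass the filter on low counts reached at most 0.836 CPM on average. They included the skeletal muscle genes Scn4a and Cacna1s and the sensory neuron genes Scn10a and Scn11a.

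**Figure D1:**
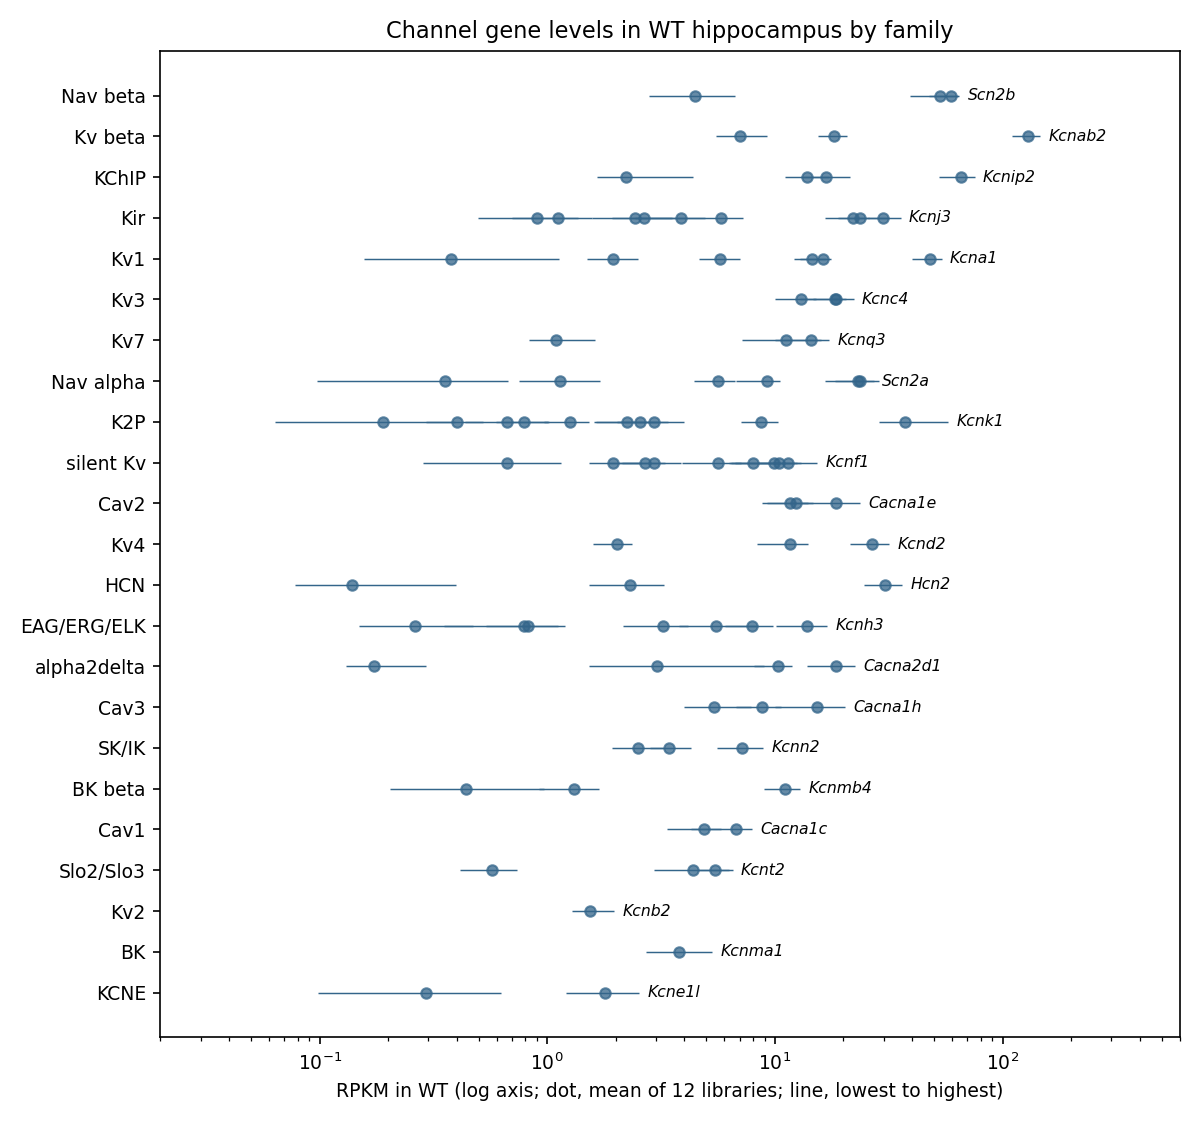
RPKM of tested channel genes in WT hippocampus on a log axis, 1 row per family; dots are means of 12 libraries and lines run from the lowest to the highest library. The rightmost gene drawn in each row is named; Kcnab2 at 129 RPKM and Kcnip2 at 65.3 lie farthest to the right, and genes not reported here are not drawn.

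Among the sodium channels, the beta subunits are single-pass membrane proteins that modify gating and adhesion. Scn2b reached 59.3 ± 4.68 RPKM and Scn3b 53.2 ± 6.51, while Scn4b reached 4.46 ± 1.20 (SD, n = 12 each). The 10 pore-forming alpha subunit genes summed to 63.4 ± 6.80 RPKM. Scn2a, the alpha subunit of excitatory axons early in development and of their proximal initial segment, had 23.6 ± 2.82 RPKM, and Scn8a, the main alpha subunit of the mature initial segment and nodes, had 23.1 ± 3.15, a difference smaller than the spread of either. Scn1a, known for its role in parvalbumin interneurons and for Dravet syndrome, followed at 9.22 ± 1.07 RPKM and Scn3a, expressed most strongly before birth, at 5.61 ± 0.780.

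Among the calcium channels, the Cav2 genes, whose channels trigger transmitter release, summed to 42.6 ± 5.57 RPKM (SD, n = 12). Cacna1e (R-type) had 18.6 ± 2.76 RPKM, Cacna1a (P/Q-type) 12.4 ± 1.55 and Cacna1b (N-type) 11.6 ± 1.74. The P/Q-type and N-type means differed by less than the SD of either. Both genes were measured in the same libraries, and their difference within libraries was not tested. The low-threshold Cav3 genes summed to 29.4 ± 3.87 RPKM, led by Cacna1h at 15.3 ± 2.76, and the L-type Cav1 genes to 11.7 ± 1.99 RPKM, led by Cacna1c at 6.76 ± 1.27. The alpha2delta genes, which encode extracellular subunits that bring calcium channels to the surface and include the target of gabapentin, summed to 32 ± 2.27 RPKM, with Cacna2d1 at 18.5 ± 2.33. With the length of the longest transcript the alpha2delta sum was 59.6 RPKM.

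The Kv beta genes summed to 154 ± 14.2 RPKM (SD, n = 12), of which Kcnab2 gave 83.7%. Its product is a cytoplasmic subunit of Kv1 channels with an aldo-keto reductase fold. The Kv1 genes themselves summed to 87.0 ± 5.95 RPKM. Kcna1, an axonal Kv1 channel mutated in episodic ataxia, had 48.1 ± 4.93 RPKM, Kcna2, its usual partner, 16.3 ± 1.24, and Kcna4, an inactivating Kv1 channel, 5.74 ± 0.842. The KChIP genes, calcium-binding subunits of Kv4 channels, summed to 98.2 ± 8.67 RPKM with Kcnip2 at 65.3 ± 7.24, against 40.3 ± 4.08 RPKM for the Kv4 genes, where Kcnd2, the main A-type channel gene of pyramidal cell dendrites, had 26.6 ± 3.10. The Kv3 genes, whose channels allow fast firing, summed to 81.8 ± 9.33 RPKM, with Kcnc1 at 18.4 ± 1.79.

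The Kv7 genes, whose channels carry the muscarine-sensitive M current, summed to 63.8 ± 8.14 RPKM (SD, n = 12), with Kcnq3 at 14.4 ± 1.97 and Kcnq5 at 11.2 ± 2.64. With the length of the longest transcript in place of merged exons, the Kv7 sum was 105 RPKM. The electrically silent Kv genes, whose products reach the surface only together with Kv2 subunits, summed to 53.6 ± 5.36 RPKM, whereas the 2 Kv2 genes summed to 5.25 RPKM. The EAG, ERG and ELK genes summed to 32.5 ± 3.0 RPKM, with Kcnh3, a forebrain ELK channel, at 13.9 ± 2.0. Among channels gated by calcium or sodium, the BK pore gene Kcnma1 had 3.79 ± 0.732 RPKM and its neuronal beta subunit gene Kcnmb4 11 ± 1.35. The small-conductance gene Kcnn2, which contributes to the afterhyperpolarization, had 7.19 ± 1.04 RPKM. With the length of the longest transcript the BK beta and small-conductance family sums were 24.4 and 21.7 RPKM, in place of 12.8 and 13.1. The sodium-activated channel genes Kcnt2 and Kcnt1 had 5.46 ± 0.668 and 4.36 ± 1.08 RPKM.

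The inward rectifiers summed to 92.4 ± 7.95 RPKM (SD, n = 12). Kcnj3, a subunit of the channels opened by G proteins, had 29.9 ± 2.96 RPKM, while Kcnj6, a second such subunit, had 3.86 ± 0.725 and Kcnj11, the pore of the ATP-sensitive channel, 2.66 ± 0.515. Of 57.1 ± 7.21 RPKM for the K2P genes, Kcnk1 gave 65.3%. Hcn2 had 30.4 ± 3.47 RPKM and gave 88.4% of the HCN sum. With merged exons, neighbours in the order of family sums from KChIP through inward rectifiers and Kv1 to Kv3, and from Kv7 through sodium alpha and K2P to silent Kv, differed by less than 1 SD. With the longest transcripts, Kv7 at 105 RPKM came before inward rectifiers (100.1), Kv1 (96.7) and sodium alpha subunits (87.1), so this order depends on the length used.

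Of the genes, 5 share over 20% of their exon bases with a gene on the opposite strand, and whether the counting used strand is not given in the sources used here, so their levels are uncertain. These are Kcnmb4os1 (43.1%), Kcna6 (39.6%, with Gm26673), Kcnmb4os2 (34.2%), Kcnj3 (31.1%, with Gm26794) and Kcnmb4 (20.8%).

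Promoters of 4 genes are shown, at both ends of the level range that also differ most between libraries below: Kcnab2 and Kcnip2, among the highest channel genes, and Kcna5 and Hcn4, among the lowest tested. Each run holds 250 bases before and 50 bases after the start of the RefSeq gene on GRCm38.p6, 5′ to 3′ on the gene's strand, and capitals mark GC boxes, the letters GGGCGG or CCGCCC, where factors of the Sp family can bind. The windows are chr4:152477500-152477799 on the minus strand for Kcnab2 (the first of its 3 windows), chr19:45816014-45816313 on the minus strand for Kcnip2, chr6:126535506-126535805 on the minus strand for Kcna5 and chr9:58822699-58822998 on the plus strand for Hcn4.
Kcnab2: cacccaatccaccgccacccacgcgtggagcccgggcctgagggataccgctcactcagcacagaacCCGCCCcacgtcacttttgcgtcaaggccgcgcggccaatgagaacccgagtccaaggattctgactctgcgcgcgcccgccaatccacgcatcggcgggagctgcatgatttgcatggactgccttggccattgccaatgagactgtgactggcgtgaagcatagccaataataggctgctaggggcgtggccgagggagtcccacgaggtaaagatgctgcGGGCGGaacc
Kcnip2: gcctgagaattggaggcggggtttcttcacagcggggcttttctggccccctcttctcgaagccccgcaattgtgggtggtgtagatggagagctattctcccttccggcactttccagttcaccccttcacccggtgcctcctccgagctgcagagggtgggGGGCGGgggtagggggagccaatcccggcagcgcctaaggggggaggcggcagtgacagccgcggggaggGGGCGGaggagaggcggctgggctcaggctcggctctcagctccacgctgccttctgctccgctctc
Kcna5: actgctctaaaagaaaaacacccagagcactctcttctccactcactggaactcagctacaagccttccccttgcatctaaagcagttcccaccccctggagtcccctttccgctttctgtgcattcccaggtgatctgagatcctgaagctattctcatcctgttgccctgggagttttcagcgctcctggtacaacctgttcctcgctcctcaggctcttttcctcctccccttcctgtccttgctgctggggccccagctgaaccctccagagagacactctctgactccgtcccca
Hcn4: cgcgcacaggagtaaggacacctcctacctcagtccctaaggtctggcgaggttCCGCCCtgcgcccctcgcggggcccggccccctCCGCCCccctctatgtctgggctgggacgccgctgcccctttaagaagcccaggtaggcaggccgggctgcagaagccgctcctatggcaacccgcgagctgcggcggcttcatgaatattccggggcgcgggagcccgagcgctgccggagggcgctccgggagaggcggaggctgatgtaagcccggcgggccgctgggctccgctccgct
The Kcnab2, Kcnip2 and Hcn4 windows hold 2 GC boxes each and 25, 18 and 31 CpG dinucleotides, and the Kcna5 window holds none of the boxes and 4 CpG. The other 2 windows of Kcnab2 also hold 0 GC boxes, with 5 and 3 CpG. RefSeq windows were matched for 88 of the 123 genes, 117 windows in all. A GC box was present in 47.0% of them, against 35.7% of all 32841 promoter windows. A TATAAA motif was present in 5.13% against 13.6%, the E box CACGTG in 5.98% against 7.15%, and the cyclic AMP response element TGACGTCA in 0 of 117 against 1.79%, both strands searched and overlaps counted. Median GC content was 58.3% in the channel gene windows and 52.7% in all windows.

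KO was compared with WT to ask whether channel genes differed with the Ins2 genotype. No channel gene passed edgeR's quasi-likelihood test with Benjamini-Hochberg adjustment over all genes, with or without KO 8. With all 23 libraries, 0 of 101 tested channel genes were called at an adjusted p under 0.05, and the lowest adjusted p among them was 0.781. The background was 2 of 15828 genes, or 0.0126%. Without KO 8 the count was again 0 of 101, the lowest adjusted p was 0.967, and the background was 2 of 15870 genes, or 0.0126%. At an unadjusted p under 0.05 edgeR took 8 channel genes (7.92%, against 5.74% of all genes), 5 higher and 3 lower in KO, where the shares of all genes were 3.41% and 2.34%. DESeq2 also called 0 (against 0.0253% of all genes) and took 8 at the unadjusted threshold (against 6.17%), and limma voom with sample quality weights called 0 (against 0.0253%) and took 22, where its share of all genes was 17.5%. Without KO 8 the edgeR count was 3 (2.97%, against 4.11% of all genes), 1 higher and 2 lower in KO, where the shares of all genes were 2.18% and 1.93%. Both edgeR shares lie near their background.

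The log2 fold change of KO over WT was below 0 for 60 of 101 channel genes, against 49.0% of all genes, and for 59 without KO 8, against 48.4%. The median log2 fold change was -0.03 in both fits, against 0.00 over all genes tested. For 76 of 101 channel genes (75.2%, against 83.3% of all genes) the 95% interval of the fold change lay within 1.5-fold of no difference. Without KO 8 this held for 91 (90.1%, against 87.2%). Within 2-fold lay 91 with all libraries and 99 without KO 8, and the share of all genes within 2-fold is not given here. The summed level was 1328 ± 98.9 RPKM in WT (SD, n = 12) and 1299 ± 101 in KO without KO 8 (SD, n = 10), and 830 RPKM in KO 8. The sign of the log2 fold change differed between the 2 fits for 19 channel genes. The share of all genes with such a change is not given here, and no conclusion is drawn from this count.

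**Figure D2:**
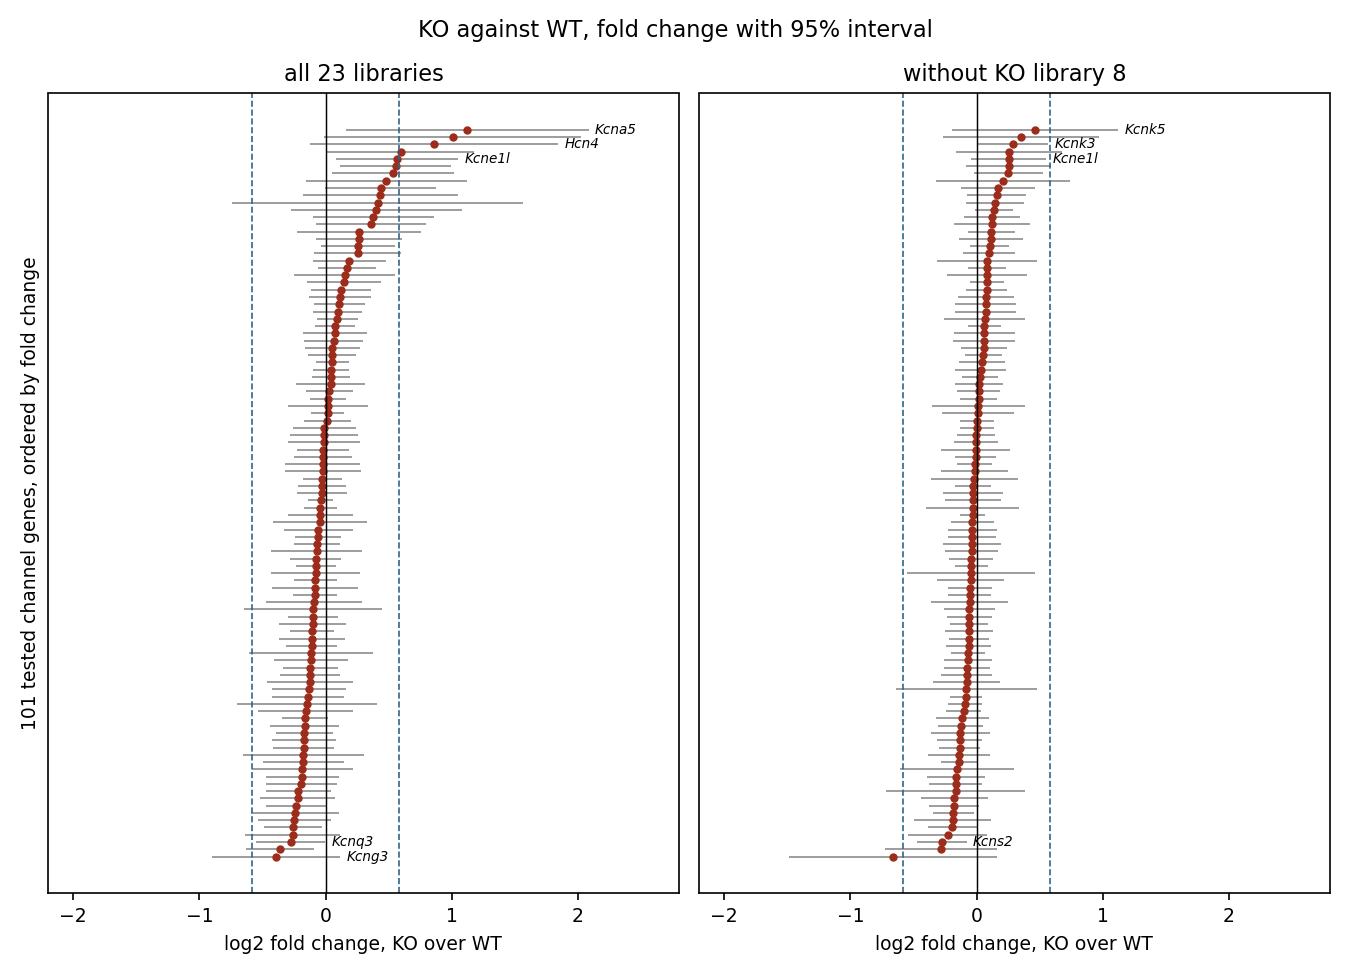
Log2 fold change of KO over WT for the 101 tested channel genes, ordered by size, with all 23 libraries (left) and without KO 8 (right); lines are 95% intervals and dashed lines mark 1.5-fold. Without KO 8 the intervals are narrower, with 91 of 101 inside the dashed lines against 76.

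Of the 8 genes, 3 kept an unadjusted p under 0.05 in both fits, Kcns2, Scn3b and Kcnk3. Kcns2 (chr15:34837355-34843407, plus strand, GRCm38), a silent Kv subunit, had a lowest, median and highest level of 3.91, 5.64 and 7.13 RPKM in WT and of 3.73, 4.39 and 6.30 in KO without KO 8, with 1.94 in KO 8. The genotypes overlapped over most of their range, and WT 15 held the lowest WT value and KO 22 the highest KO value. The log2 fold change was -0.36 (SE 0.130, 95% interval -0.63 to -0.09, edgeR p = 0.0107, adjusted p = 0.781), and -0.28 without KO 8 (SE 0.0961, p = 0.00815, adjusted p = 0.967).

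Scn3b (chr9:40269217-40291618, plus strand), a sodium channel beta subunit, had a lowest, median and highest level of 39.2, 54.7 and 63.7 RPKM in WT and of 39.2, 44.8 and 64.7 in KO without KO 8, with 22.3 in KO 8. The 2 ranges were nearly the same, with the KO median below that of WT. The log2 fold change was -0.26 (SE 0.112, edgeR p = 0.0293, adjusted p = 0.781) and -0.18 without KO 8 (SE 0.0799, p = 0.0303, adjusted p = 0.967). Dentate gyrus markers summed to 527 to 874 CPM in WT, 483 to 869 in KO without KO 8 and 297 in KO 8. The 3 libraries with the highest of these sums were WT 11 (874 CPM), KO 22 (869) and WT 19 (865). They had Kcns2 at 7.13, 6.30 and 6.62 RPKM and Scn3b at 60.9, 64.7 and 54.8. Other libraries did not keep to the order of the sums: Kcns2 was at 6.12 RPKM in WT 23 (639 CPM) and 4.69 in KO 9 (716), and Scn3b at 63.7 in WT 20 (804). The part of the marker level in these differences was not tested, and in whole tissue fewer cells of a type and less RNA per cell cannot be told apart.

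Kcnk3 (chr5:30588170-30625271, plus strand), an acid-sensitive K2P channel, had a lowest, median and highest level of 1.63, 2.24 and 3.07 RPKM in WT and of 1.6, 3.01 and 4.12 in KO without KO 8, with 9.01 in KO 8. The KO values spread more widely than the WT values and covered their whole range. The log2 fold change was 0.56 (SE 0.213, edgeR p = 0.0152, adjusted p = 0.781) and 0.29 without KO 8 (SE 0.135, p = 0.0416, adjusted p = 0.967). The M-channel gene Kcnq3 (chr15:65986387-66286642, minus strand) had medians of 14.2 RPKM in WT and 12.4 in KO without KO 8, with 5.16 in KO 8. Its log2 fold change was -0.28 (SE 0.132, edgeR p = 0.0483), and -0.19 without KO 8 (p = 0.0577).

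The remaining 4 genes with an unadjusted p under 0.05 also had fold changes farther from 0 with KO 8 than without it. The same held for Kcns2, Scn3b, Kcnk3 and Kcnq3. Kcna5, a Kv1 channel better known from heart and vessels, had medians of 0.304 RPKM in WT and 0.447 in KO without KO 8, and 4.80 in KO 8. Its log2 fold change was 1.12 (SE 0.465, edgeR p = 0.0239) with all libraries and 0.21 (SE 0.257, p = 0.422) without KO 8. Kcne1l, a small KCNE-type subunit, went from 0.57 to 0.25, Kcnj12, an inward rectifier, from 0.53 to 0.25 and Kcnh6, an ERG channel, from 0.59 to 0.26 when KO 8 was left out, with edgeR p of 0.0926, 0.133 and 0.218 without it. Larger turns were seen in genes of low level: the log2 fold change of Scn9a went from 1.01 to -0.16 and that of Hcn4 from 0.86 to -0.08.

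Without KO 8, the genes next in order of p were Kcnip2, Kcnq3, Kcnab3, Scn3a and Kcnip3. Kcnip2, the most abundant KChIP, had a lowest, median and highest level of 52.4, 66.3 and 75.3 RPKM in WT and of 48.1, 61.2 and 70.4 in KO, a log2 fold change of -0.14 (SE 0.0696, edgeR p = 0.0561). Kcnab3, the third Kv beta gene, had 0.25 (p = 0.0659), Scn3a -0.18 (p = 0.0735) and Kcnip3, a KChIP that also acts as the transcription factor DREAM, 0.14 (p = 0.0743), each with adjusted p = 0.967.

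Genes whose products attach to or anchor these channels, outside the choice by symbol, were counted in the same fit. Of 45 such genes, 44 were found and 43 tested, and edgeR called 0 with or without KO 8. Their log2 fold changes were below 0 for 30 of 43 in both fits, beside 49.0% and 48.4% of all genes. At an unadjusted p under 0.05 there were 3 of 43, all lower in KO, and 2 without KO 8, beside 5.74% and 4.11% of all genes in either direction and 2.34% and 1.93% lower in KO. The smallest p belonged to Lrrc26, an auxiliary subunit of BK channels, with 1.66 ± 0.333 RPKM in WT (SD, n = 12), 1.24 ± 0.385 in KO (SD, n = 11) and a log2 fold change of -0.43 (SE 0.169, edgeR p = 0.0181), or -0.35 (p = 0.0317) without KO 8. Abcc8, the sulfonylurea receptor that pairs with the Kcnj11 pore, had 4.79 ± 0.814 RPKM in WT and 3.91 ± 0.956 in KO and a log2 fold change of -0.29 (SE 0.123, edgeR p = 0.0253), or -0.23 (p = 0.0475) without KO 8. Kcnj11 itself had a log2 fold change of -0.17 (p = 0.151), or -0.13 (p = 0.266) without KO 8.

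The spread of the channel genes between WT libraries was set beside that of genes of similar level. The SD of log2 CPM over the 12 WT libraries was above the median of its expression decile for 82 of 101 tested channel genes (81.2%), and its median was 0.231 against 0.171 for all tested genes. Cacna2d2, Scn9a, Kcnmb1, Kcna5 and Kcnh5 were among the 6 channel genes of widest spread, counting those with a mean of at least 1 CPM. For the first 4 of these genes the highest WT library was WT 15. It had 8.94 RPKM of the alpha2delta gene Cacna2d2 against a WT median of 2.38, 0.672 of Scn9a, a sensory neuron sodium channel, against 0.329, 0.964 of the BK beta gene Kcnmb1 against 0.390 and 1.13 of Kcna5 against 0.304. Thalamus and habenula markers summed to 242 CPM in WT 15, against 109 to 200 in the other libraries apart from KO 8, and the hypothalamic markers to 7.72 CPM, with KO 4 higher at 9.20. WT 15 also had the highest interneuron sum, 1275 CPM against 697 to 1151 in the other libraries. Its CA2 sum, 297 CPM, was the highest of all libraries, and its CA3 sum, 387 CPM, was the lowest apart from KO 8. Among the WT libraries it had the lowest dentate gyrus sum, 527 CPM, and the highest oligodendrocyte sum, 8303 CPM. The part of these marker levels in the values of WT 15 was not tested.

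**Figure D3:**
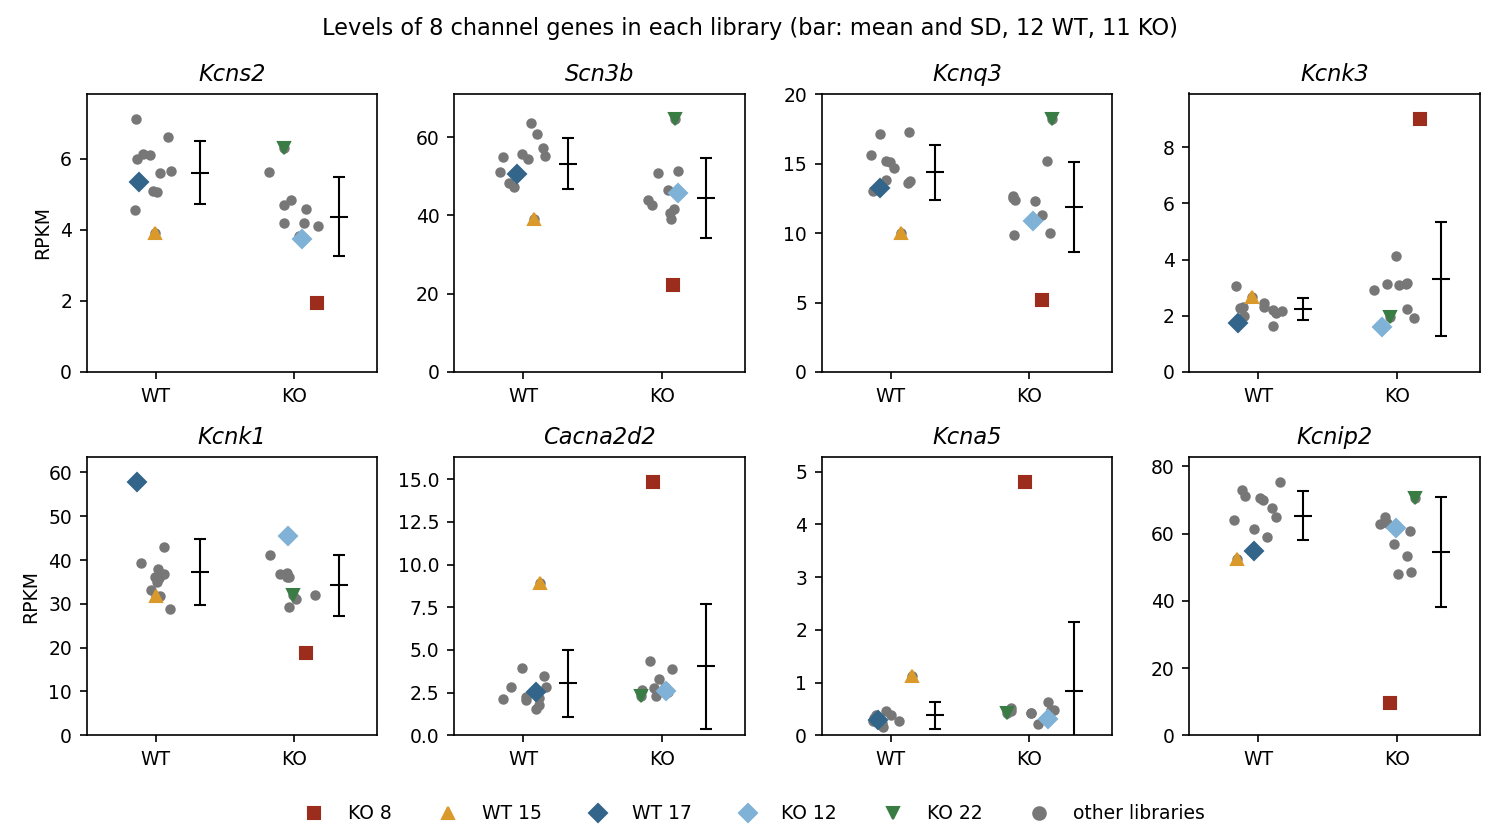
RPKM of 8 channel genes in every library, WT left and KO right in each panel, with the mean and SD beside the points (12 WT, 11 KO); 5 libraries have symbols of their own, and the KO bar of Kcna5 is clipped at 0. KO 8 lies outside all other libraries in each panel, WT 15 is the highest WT library for Cacna2d2 and Kcna5, and WT 17 the highest of all for Kcnk1.

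Libraries also differed in the level of the channel genes as a group. The median difference of the 101 tested genes from the median of the 22 libraries other than KO 8 was -0.20 on the log2 scale in both WT 17 and KO 12, -0.14 in WT 15, 0.17 in KO 22 and -0.32 in KO 8. In all other libraries it lay between -0.07 and 0.11. The WT 17 and KO 12 libraries had the highest choroid plexus sums and, after KO 8, the lowest sums of pan-neuronal markers, 4777 and 4895 CPM against 5353 to 6841 in the rest. Among those 22 libraries, WT 17 was the lowest for 17 of 99 channel genes with a mean of at least 1 CPM (17.2%, against 10.2% of all genes) and the highest for 3 (3.03%, against 11.6%). KO 12 was the lowest for 13 (13.1%, against 6.26%) and the highest for 0 (against 8.17%). Among the genes highest in WT 17 was Kcnk1, at 57.8 RPKM, followed by KO 12 at 45.5, while the 20 others of the 22 libraries ranged from 28.7 to 43.0. The part of the choroid plexus level in these values was not tested.

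KO 22 was the highest of the 22 libraries for 25 of 99 channel genes (25.3%, against 12% of all genes) and the lowest for 4 (4.04%, against 10.3%). It also had the highest pan-neuronal sum, 6841 CPM, and the lowest oligodendrocyte sum, 3506 CPM against 3980 to 8642 in the others. Channel genes have long exons, a median of 5215 bases against 4282 for all tested genes, and 40 of 101 have at least 6653 bases, as do 3937 of all tested genes. Those 3937 genes had a median difference of 0.12 in KO 22, -0.02 in WT 17 and -0.05 in KO 12, and the part of exon length in the channel gene values was not tested. WT 15 was the highest of the 22 for 8 channel genes (8.08%, against 6.74%) and the lowest for 10 (10.1%, against 5.93%).

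**Figure D4:**
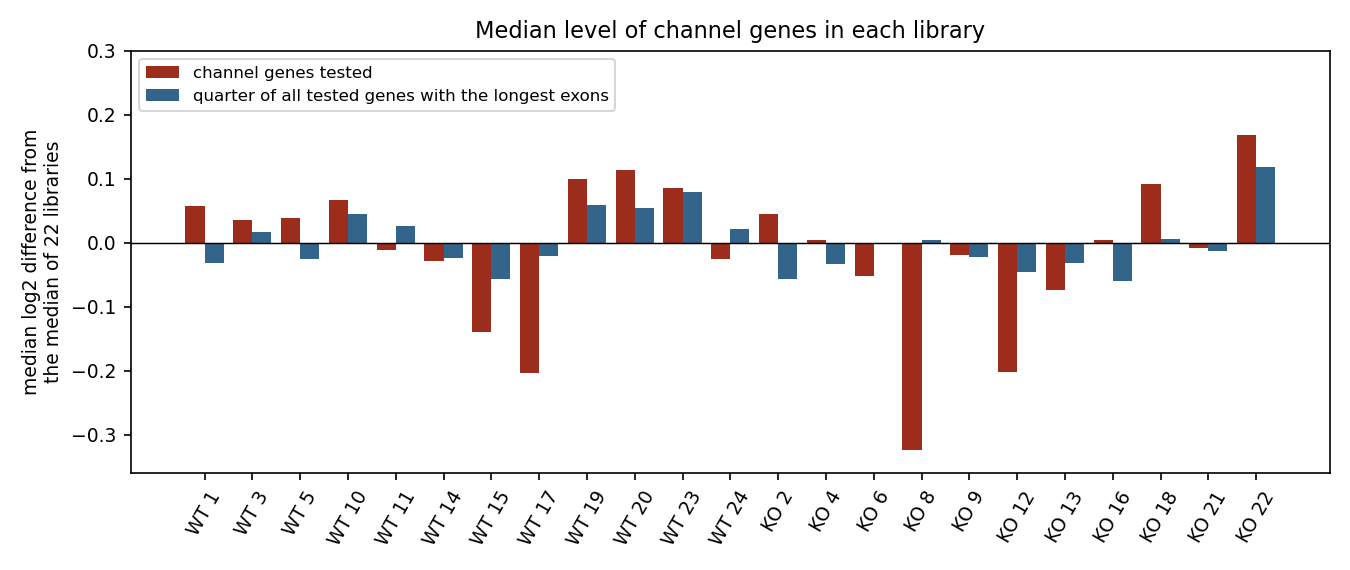
Median log2 difference of each library from the median of the 22 libraries other than KO 8, for the 101 tested channel genes (red) and for the 3937 tested genes with the longest exons (blue). WT 17, KO 12 and KO 8 have the lowest red bars at -0.20, -0.20 and -0.32, and KO 22 the highest at 0.17.

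In KO 8, which is 1 library and has no replicate, channel genes lay both far above and far below the other libraries, and the family sums farthest below were those of the Kv beta and silent Kv genes, 3.95-fold and 2.95-fold under the median of the other 22. The sums farthest above were those of the KCNE genes, 8.68 RPKM against 1.55 to 3.43 (3.65-fold over the median), and of the Slo2 and Slo3 genes, 18.7 RPKM against 8.25 to 12.1 (1.76-fold). Of 99 channel genes with a mean of at least 1 CPM, 64 (64.6%) lay outside the range of the other 22 libraries, against 46.8% of all genes. Of these, 41 were below all others (41.4%, against 24.3%) and 23 above (23.2%, against 22.4%, near the background). The mean behind this filter includes KO 8, so a gene high in KO 8 alone can enter the count above. Hcn4, with a mean of 1.20 CPM, passed only through its level in KO 8, and no conclusion is drawn from the count above. Scaling by library totals in place of TMM shifts KO 8 up by 0.18 on the log2 scale against the median of the other libraries, and then 37 were below (against 16.3% of all genes) and 35 above (against 35.0%). The summed level was 830 RPKM, against 1161 to 1466 in the other 22.

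Kcnh3, the ELK channel of forebrain neurons, showed the greatest distance below the others, 0.438 RPKM against 10.1 to 18.2, which is 31.4-fold under the median of 13.8. Kcnj4, a strong inward rectifier of forebrain neurons, was at 1.59 RPKM against 16.6 to 31.6, or 15.1-fold under the median. Several silent Kv genes were also low, with Kcng1 at 0.959 RPKM against 5.90 to 13, Kcng2 at 1.08 against 6.03 to 10.5 and Kcnv1 at 1.77 against 8.16 to 12.9. Kcns1, another of them, was at 0.664 against 1.85 to 3.87, so that 8 of the 9 silent Kv genes tested lay below all other libraries. The 2 auxiliary genes whose promoters are shown above were also low: Kcnip2 was at 9.65 RPKM against 48.1 to 75.3, and Kcnab2 (chr4:152390742-152477871, minus strand) at 28.3 against 105 to 147. All 3 Kv beta genes and 3 of 4 Kv7 genes lay below all other libraries. The share of all genes with a mean of at least 1 CPM that did so was 24.3%. Not every family was low. Of 7 tested sodium alpha genes, 1 lay below all others and 4 above, and of 2 tested KCNE genes, 0 lay below and 2 above.

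The genes above the others were mostly of low level elsewhere. Scn9a was at 4.74 RPKM against 0.0973 to 0.672, or 13.9-fold over the median. Kcna5 was at 4.80 RPKM against 0.156 to 1.13 (12.5-fold), and Hcn4, the pacemaker channel of the heart, which is also known from thalamus, at 1.51 against 0.0581 to 0.396 (12.8-fold). Cacna2d2 reached 14.8 RPKM against 1.52 to 8.94, Kcnip1 8.32 against 1.65 to 4.35, Kcnk3 9.01 against 1.6 to 4.12 and Kcnt1 16 against 2.95 to 6.80. All of these genes were chosen among the 8 farthest from the median in each direction, with a mean of at least 1 CPM. Hcn4 passed that filter only through its level in KO 8, so its place in the list rests on this library. Kcnj5, a G-protein-opened inward rectifier with too few counts for the test, was named after its values were seen: it had 2.46 RPKM against 0.0143 to 0.345.

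**Figure D5:**
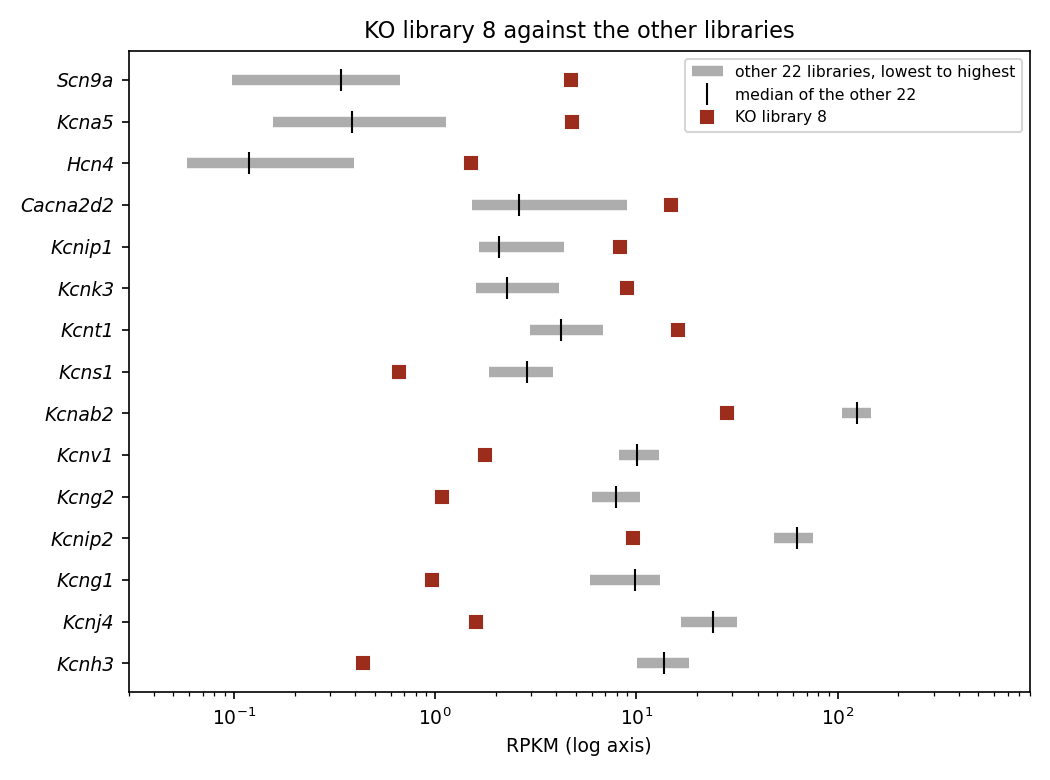
RPKM on a log axis in KO 8 (red squares) beside the lowest, median and highest of the other 22 libraries (grey bars, black ticks) for 7 of the 8 channel genes farthest above and the 8 farthest below the median. No square touches its bar; Kcnh3 at 0.438 RPKM against a median of 13.8 has the greatest distance.

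Members of one family parted in KO 8. On chromosome 6, the Kv1 neighbours Kcna1 (126640397 to 126646384), Kcna5 (126532551 to 126535412) and Kcna6 (126708329 to 126740674) lie on the same strand. Kcna1 was 3.60-fold under the median at 12.9 RPKM, Kcna5 12.5-fold over it and Kcna6, whose exons overlap an opposite-strand gene, 1.67-fold over it at 23.5. Of the sodium alpha genes, Scn8a was at 8.25 RPKM against a WT range of 16.6 to 28.5, Scn2a at 20.8 was within the range of the others, and Scn1a at 12.7 was above it. The family sum, 61.3 RPKM, was 0.994 of the median. Hcn2 at 36 RPKM was within the range of the others, and the HCN sum was 1.36 of the median. Among the Cav3 genes, Cacna1h at 5.78 RPKM was below all others and Cacna1g at 14.7 was above, and their sum was 0.988 of the median.

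These values in KO 8 stood beside the marker levels of the same library. Its sums were 297 CPM for dentate gyrus, 251 for CA1 and 154 for CA3 markers, against 483 to 874, 469 to 857 and 387 to 575 in the other 22, and 653 CPM for thalamus and habenula markers against 109 to 242. The astrocyte sum, 3212 CPM, was below the 4187 to 5346 CPM of the others, but only 1 of its 7 genes was below all others and 1 was above. The sum of oligodendrocyte precursor markers, 179 CPM, was above their 132 to 166, with 1 of 4 genes above all others, and the CA2 sum was within their range, with 1 of 5 genes below and 1 above. The pan-neuronal sum, 4327 CPM, was below all others, with 3 of 7 genes below and 2 above. The interneuron sum, 1048 CPM, was within the range of the others, while 4 of 9 genes were below all others and 2 above. The part of these marker levels in the channel gene values was not tested.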

How the data were processed

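RNA was sequenced from hippocampus of 12 WT and 11 KO female libraries. The deposited table holds estimated counts per Ensembl gene, which the authors made with bcl2fastq, STAR and mm10 among the tools and builds in the submitters' processing notes; the counting program and strand setting are not given in the sources used here. Symbols, exons and coordinates came from GENCODE on GRCm38, and 45143 of 45706 identifiers had a symbol. Estimated counts were rounded, filtered with filterByExpr, scaled by TMM and tested with edgeR 4.0.16 (robust quasi-likelihood) in R 4.3.3, with Benjamini-Hochberg adjustment over all genes and a call at 0.05; the steps were tested on simulated data. DESeq2 1.42.0 and limma 3.58.1 were alternatives. Log2 CPM used a pseudocount of 0.5. Intervals and the limit for 0 counts (3 counts) cover counting or model error only. Libraries of a genotype differed beyond counting noise alone (lowest chi-square per degree of freedom 6.91). That value cannot separate biological from technical spread, and no conclusion is drawn from it.

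Genes named with fold changes were the 8 with the smallest p in each fit. Fold changes are also given for Scn9a, Hcn4 and Kcnj11, which the rule names for their levels. Genes named with levels were the highest of each family, the 8 farthest in each direction in KO 8, the 6 with the widest WT spread and genes of textbook roles. Others, such as Scn2b, Scn4b, Kcna6 and Kcnj5, were named after their values were seen. The genes, marker lists and partner genes were chosen with earlier results of these data known. Some channel genes that these rules name are not reported here.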

Additional observations from a re-analysis of the deposited data

How the results depend on the processing

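No channel gene was called under any alternative (DESeq2, voom, size factors of DESeq2, 2 other filters, a choroid plexus score as covariate, a threshold of 0.10, or leaving out any 1 of the 23 libraries). The lowest adjusted p of any channel gene over all of them was 0.117, for Kcns2 in voom. The count at an unadjusted p under 0.05 was 8 with edgeR (against 5.74% of all genes) and 22 with voom (against 17.5%). It ranged from 3 to 16 when 1 library was left out: 3 without KO 8 (against 4.11%), 5 without WT 11 and 16 without WT 15 or without KO 22. The shares of all genes without WT 11, WT 15 or KO 22 are not given here, so no conclusion is drawn from those counts. The median log2 fold change stayed between -0.05 and -0.02 across tools, filters and the covariate and between -0.06 and -0.01 with 1 library left out. The log2 fold change of Kcns2 ranged from -0.42 to -0.28 and that of Kcnk3 from 0.29 to 0.62. That of Kcna5 ranged from 0.19 with DESeq2 to 1.43 without WT 15. With edgeR and 1 library left out, Kcna5 had 0.21 without KO 8 and 1.04 to 1.43 otherwise, so its size in edgeR rests on KO 8. With the length of the longest transcript in place of merged exons the summed WT level was 1669 RPKM and not 1328, and 16 family sums moved by over 1 SD. By library totals, 35 channel genes lay above all others in KO 8 in place of 23. The alternatives were run for the counts, the family sums and the fold changes of the 12 genes with the smallest p in either fit, and of these 12 genes 0 changed sign. Over all 101 tested channel genes, 19 changed sign without KO 8, and the share of all genes that did so is not given here.

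No paired analysis was possible because no replicate number occurs in both genotypes. Genes with few counts have wide intervals, and KO 8, WT 15 and WT 17 are single libraries whose values have no replicate.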
